A study of Bos taurus with 16 samples.

Results

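The B cell receptor and lineage genes described here are CD79A, CD79B, MS4A1, PAX5, FCRLA, IRF4, BLK, CR2 and CD22, taken by gene symbol and not by any measured value. The array annotation paired 14 probes with 8 of these 9 genes, among 16966 gene symbols in all. CD22 was not analysed here. The 14 probes were 2 each for CD79A, MS4A1 and IRF4, 4 for CR2, and 1 each for CD79B, PAX5, FCRLA and BLK.

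A B cell recognises antigen through membrane immunoglobulin, which has almost no signalling tail of its own. Signalling is carried by the CD79A and CD79B chains, whose cytoplasmic tails hold an immunoreceptor tyrosine-based activation motif (ITAM), a pair of tyrosines at a fixed spacing that Src-family kinases such as BLK phosphorylate. CR2, the complement receptor CD21, lowers the threshold for this signal, and CD22 dampens it. MS4A1 encodes CD20, a membrane protein of mature B cells, and FCRLA an intracellular Fc receptor-like protein of B cells. PAX5 is the transcription factor that holds B cell identity, and IRF4 drives the step from activated B cell to plasma cell and also acts in T cells. In blood, B cells are a minority of the white cells, and plasma cells are rare.

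Whole blood of lactating Holstein Friesian cows was measured on 16 single-colour (Cy3) bovine 4x44K oligonucleotide arrays. The 10 female cows enrolled were split into 5 that received a commercial oral probiotic pack (yeast culture with bacterial and fungal fermentation products) and 5 that received water only, for 60 days. The 4 groups are day 0 (before any supplement), probiotic day 60, untreated day 60 (water only), and probiotic day 60 blood exposed outside the animal to lipopolysaccharide (LPS, endotoxin of Gram-negative bacteria) at 100 ng/ml. Jugular blood of all groups was held for 30 minutes at 37 °C, and red and white cells were lysed separately during RNA extraction. RNA of the cows of a group was pooled, and each pool was hybridised to 4 arrays. The 4 arrays of a group are therefore repeat measurements of a single pool, and every SD, SE and p-value below measures the spread of arrays, not of cows. The ages of the cows are not given in the sources used here, and the labels do not settle whether the day 0 pool held all 10 cows or only the probiotic arm. In whole blood, fewer B cells and less RNA per B cell cannot be told apart.

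The probes that carry the results are 60 bases long, and the 7 that read as coding sequence are shown because 2 of them lie in the signalling or membrane part of the receptor chains and the others identify which stretch of each gene was measured. They are printed 5′ to 3′ as deposited.
CD79A A_73_P109866: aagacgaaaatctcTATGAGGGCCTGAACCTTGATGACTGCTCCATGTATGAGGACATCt
CD79B A_73_P066211: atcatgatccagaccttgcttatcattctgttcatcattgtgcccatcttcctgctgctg
MS4A1 A_73_115697: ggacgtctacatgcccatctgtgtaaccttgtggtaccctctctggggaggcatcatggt
FCRLA A_73_P092011: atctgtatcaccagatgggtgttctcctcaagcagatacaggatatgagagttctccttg
PAX5 A_73_100824: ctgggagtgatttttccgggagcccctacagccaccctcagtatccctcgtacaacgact
IRF4 A_73_P411581: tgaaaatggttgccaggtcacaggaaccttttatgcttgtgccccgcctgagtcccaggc
IRF4 A_73_P063031: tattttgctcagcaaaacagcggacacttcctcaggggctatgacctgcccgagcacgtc
The capitals in the CD79A probe, bases 15 to 59, mark a stretch with the spacing of an ITAM, in which 7 codons separate the paired tyrosine units. On the printed strand, 27 of 43653 probe sequences (0.0619%) held such a stretch. The other CD79A probe, A_73_101543, is not printed. It holds AATAAA, the polyadenylation signal, as did 9.35% of all probes, and is called the 3′-end probe of CD79A below (in the figures, the probe with AATAAA). The probe A_73_P109866 is called the tail probe.

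The arrays differed before any gene was compared. A probe is called detected here where the scanning software judged it well above background. Detected probes made up 17.9% ± 6.59 (SD, n = 4 arrays) of all probes on day 0 arrays, 32.9% ± 4.70 on probiotic arrays, 15.2% ± 3.06 on untreated arrays and 34.4% ± 8.53 on LPS arrays. Day 0 replicate 4 (8.26%), LPS replicate 4 (22.5%) and probiotic replicate 4 (26.4%, against 32.6% to 37.1% on the other probiotic arrays) were the dimmest of their groups. The brightest spike-in, a control RNA added to each sample, had a median signal of 8.51 to 19.1 on the untreated arrays and of 45859 to 59872 on probiotic replicates 1 to 3, but of 89.6 on probiotic replicate 4. Over the outer 76 rows at each end of the array, the signals of the untreated arrays had a Spearman correlation of 0.23 to 0.27 with probiotic replicate 1. The same figure was 0.91 to 0.93 for day 0 replicates 1 to 3 and 0.94 to 0.96 for LPS replicates 1 to 3, and 0.58 for day 0 replicate 4 and for LPS replicate 4. Over rows 191 to 342 it was 0.34 to 0.37 for the untreated arrays, 0.26 to 0.35 for day 0 replicates 1 to 3, 0.65 to 0.76 for LPS replicates 1 to 3, 0.86 for probiotic replicates 2 and 3 and 0.43 for probiotic replicate 4, so the low values in the middle rows were not limited to the untreated arrays. The 4 arrays of a group shared a slide that held no other group, and slide effects and group differences cannot be told apart. Probiotic and LPS arrays shared a scan day, and day 0 and untreated arrays were scanned on days of their own. Of 16 T cell genes, 14 to 15 were detected on the probiotic arrays, 4 to 6 on the untreated arrays and 4 to 12 on the day 0 arrays, with a summed signal of 42305 to 57701 on probiotic and of 2744 to 4798 on untreated arrays. For monocytes and red cells the ranges of detection counts lay closer together. Of 10 monocyte genes, 6 to 7 were detected on probiotic, 4 to 6 on untreated and 6 to 8 on day 0 arrays. Of 11 erythroid genes the counts were 4 to 6, 3 to 5 and 3 to 4. Summed signals lay far apart here too, at 59503 to 71686 on probiotic and 1340 to 7433 on untreated arrays for monocytes. For red cells they were 176940 to 236450 and 2613 to 35406, and for 13 neutrophil genes 65058 to 95103 and 2012 to 5814. The part of these differences in the results below was not tested.

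Detection also depended on the place on the array. Rows near both ends of the 532-row array were bright on day 0, probiotic and LPS arrays. Between them the day 0 arrays were dim, whereas probiotic replicates 1 to 3 and LPS replicates 2 and 3 had a further bright stretch near the middle, where LPS replicate 3 reached 61.5%. On probiotic replicate 1, for example, 56.6% of the spots in the outer rows and 36.9% of those in rows 191 to 342 were detected, and on day 0 replicate 1 the shares were 42.7% and 9.94%. For each B cell probe the share of detected spots within 15 rows and 8 columns of it is therefore given as its local detection share. Beside the fit scaled on 712 probes detected on all arrays, results are also given after local scaling, in which the 75th percentile of those surrounding spots was subtracted. Local scaling was added after the data had been seen.

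**Figure D1:**
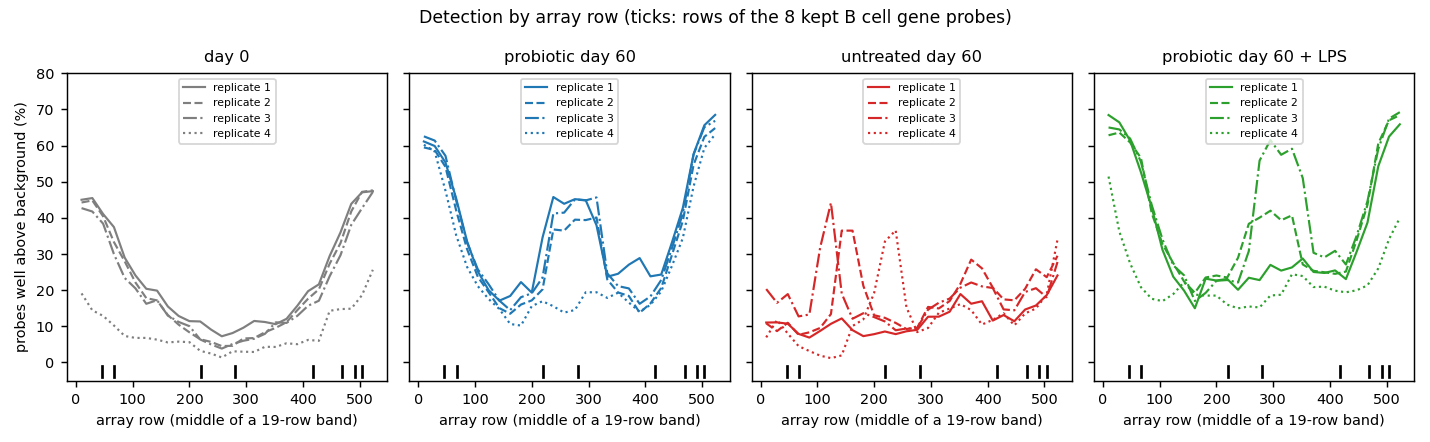
Percent of probes well above background in successive bands of array rows, one line per array and one panel per group; ticks at the bottom mark the rows of the 8 B cell gene probes kept for testing. Day 0, probiotic and LPS arrays are brightest at both ends, and the untreated arrays have bright patches at differing rows.

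Of the 14 probes, 8 probes of 6 genes were detected on every array of at least 1 group and were kept for testing. All 8 kept probes were detected on all 4 probiotic arrays. On the untreated arrays only 3 were detected on every array, the 3′-end probe of CD79A, PAX5 and the brighter IRF4 probe. The single probe of BLK was detected on 0 of 16 arrays, with signals of -6.93 to 51.9. The 4 CR2 probes gave 1 detection in all, A_73_P052736 on LPS replicate 3 at a signal of 48.2. The second MS4A1 probe, A_73_105053, was detected on probiotic replicates 1 and 3 and on LPS replicate 4 only. The local detection share around BLK was 1.16% to 3.09% on day 0 arrays and 13.3% to 22.6% on probiotic arrays, and 0% to 9.50% around the 4 CR2 probes on day 0 arrays. BLK and CR2 were not detectable on these arrays, apart from that spot, which does not show that their transcripts were absent. Counts over all 14 probes varied with the array, from 3 detected on untreated replicates 1 to 3 to 9 on probiotic replicates 1 and 3.

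**Figure D2:**
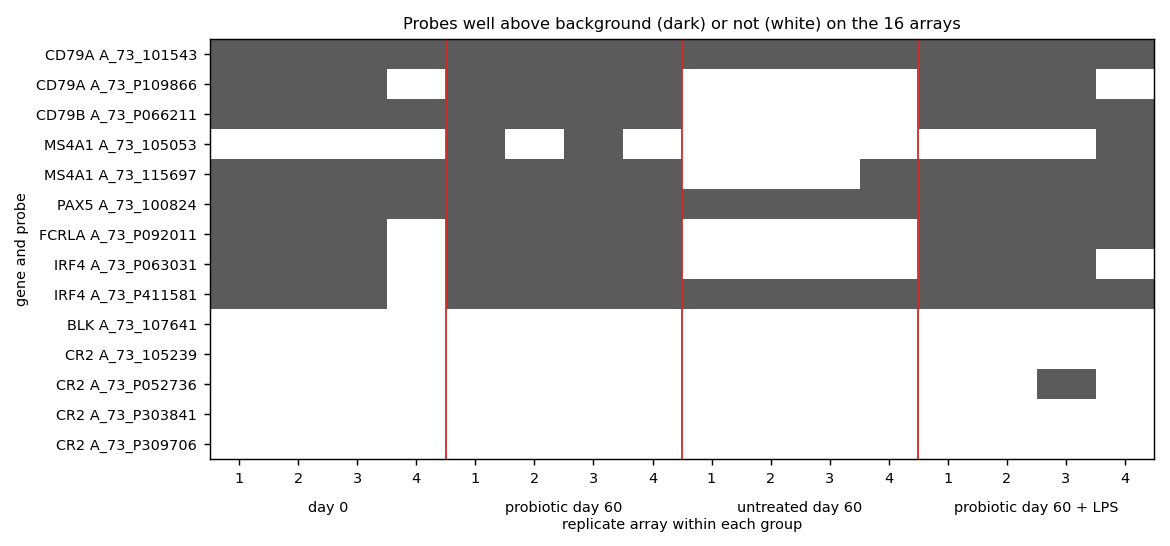
Detection of the 14 B cell gene probes (rows) on the 16 arrays (columns, 4 replicates per group); dark cells are well above background. CD79A, CD79B, MS4A1, FCRLA and IRF4 each have a probe that is dark on all probiotic arrays, and BLK is white on all 16.

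Among the receptor chains, the 3′-end probe of CD79A was the only CD79 probe detected on all 16 arrays. Its background-subtracted signal, in scanner units, was 19208, 17596, 17620 and 15344 on the probiotic arrays and 17144, 16027, 15725 and 6279 on the LPS arrays. Day 0 arrays gave 3537, 3457, 3526 and 2151, and untreated arrays 757, 1044, 812 and 1243. The probiotic and LPS arrays, apart from LPS replicate 4, formed the upper range, the day 0 arrays lay below all of these, and the untreated arrays were lowest without overlap. The local detection share ran the same way, at 62.1% to 65.8% on probiotic, 26.8% to 48.7% on day 0 and 4.83% to 10.4% on untreated arrays, and its part in the order was not tested.

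The tail probe of CD79A gave 2824, 2827, 2789 and 2365 on the probiotic arrays and 289, 306, 291 and 20.1 on the day 0 arrays. LPS replicates 1 to 3 gave 2705, 2605 and 2503, and LPS replicate 4 gave 20.0 and was not detected. The untreated arrays gave -3.15, -7.84, 1.89 and 78.4, none of them detected. The tail probe was thus detected on 4 probiotic, 3 LPS and 3 day 0 arrays. On the untreated arrays it was not well above background, although the 3′-end probe of the same gene was detected there.

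CD79B, the partner chain, followed the CD79A tail probe. Its probe, which lies in the membrane-spanning part of the protein, gave 3886, 3645, 3589 and 3239 on the probiotic arrays. Day 0 arrays gave 543, 547, 480 and 52.5, LPS arrays 3314, 3647, 3507 and 135, and untreated arrays 17.9, 19, 60.0 and 1.26. It was detected on all arrays except the 4 untreated ones, where the detection limit was higher. The 60.0 on an untreated array was not detected, and the 52.5 on a day 0 array was. As a percent of the probiotic mean, day 0 replicates 1 to 3 stood at 13.4% to 15.2% for CD79B, 10.7% to 11.3% for the CD79A tail probe and 19.8% to 20.3% for the CD79A 3′-end probe.

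MS4A1, the CD20 gene, showed the same order on its coding probe, with signals of 3164, 3100, 3004 and 2685 on probiotic arrays and 610, 553, 543 and 67.6 on day 0 arrays. LPS arrays gave 2945, 2905, 2931 and 48.6. Untreated replicates 1 to 3 gave -15.9, -19.9 and -10.4, all undetected. Untreated replicate 4 was detected at 2666, next to the lowest probiotic array. Around this probe 54.0% of spots were detected on untreated replicate 4 and 3.28% to 23.2% on the other untreated arrays. Repeat arrays of the same untreated RNA thus ranged from undetected to 89.2% of the probiotic mean.

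FCRLA, the intracellular Fc receptor-like protein, was detected on all probiotic arrays, at 1012, 1026, 1025 and 950, and on all LPS arrays, at 855, 1030, 981 and 69.7. Untreated arrays gave -13.1, -8.10, -8.14 and 6.78, none detected. Day 0 replicates 2 to 4 gave 170, 170 and 26.7, and day 0 replicate 1 gave 26653, a spot that the scanning software flagged as an outlier. A spot within 2 rows and 1 column of it read 65133 on that array, against a median of 101 on the other arrays.

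The transcription factors did not share this order. PAX5 was detected on all 16 arrays, at 516, 440, 518 and 337 on probiotic, 704, 785, 819 and 317 on untreated and 450, 351, 402 and 293 on LPS arrays. Day 0 replicates 1 to 3 gave 320, 330 and 183, and day 0 replicate 4 gave 29742, also a spot with an outlier flag, with a neighbouring spot at 52135 where the other arrays had a median of 9.15. Apart from that array, the unscaled PAX5 signal lay between 183 and 819, with overlapping groups.

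IRF4, the activation and plasma cell factor, had its highest signals on the untreated arrays. Its brighter probe gave 1190, 1183, 853 and 436 there, against 202, 184, 205 and 153 on probiotic, 185, 201, 120 and 237 on LPS and 67.9, 41.1, 56.0 and 28.4 on day 0 arrays. The untreated arrays lay above all others without overlap. The second IRF4 probe gave 133, 111, 114 and 82.2 on probiotic arrays and was detected on none of the untreated arrays, where it read 42.1, 34.5, -2.40 and 34.5. On LPS arrays it gave 119, 122, 120 and 9.16, and on day 0 arrays 39.7, 54.3, 35.5 and 0.0993, with the fourth array undetected in both groups. The untreated level of the second probe is therefore only a bound. It gives no direction between probiotic and untreated blood to set against the brighter probe. Both lie in coding sequence.

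The plot of probe signal against local detection share sets these values beside the state of the surrounding spots. For the CD79, MS4A1 and FCRLA probes, day 0 replicate 4 and LPS replicate 4 were the lowest of their groups in signal and in local detection share. For MS4A1, the untreated array with a local share of 54.0% lay with the probiotic arrays (54.5% to 59.1%). Other points did not follow the local share. CD79B stood at 90.2% of its probiotic mean on probiotic replicate 4 (local share 32.4%) and at 15.1% on day 0 replicate 1 (33.8%). The brighter IRF4 probe gave its highest values on the untreated arrays, at local shares of 6.89% to 11.1%. The part of the surroundings in these orders was not tested.

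**Figure D3:**
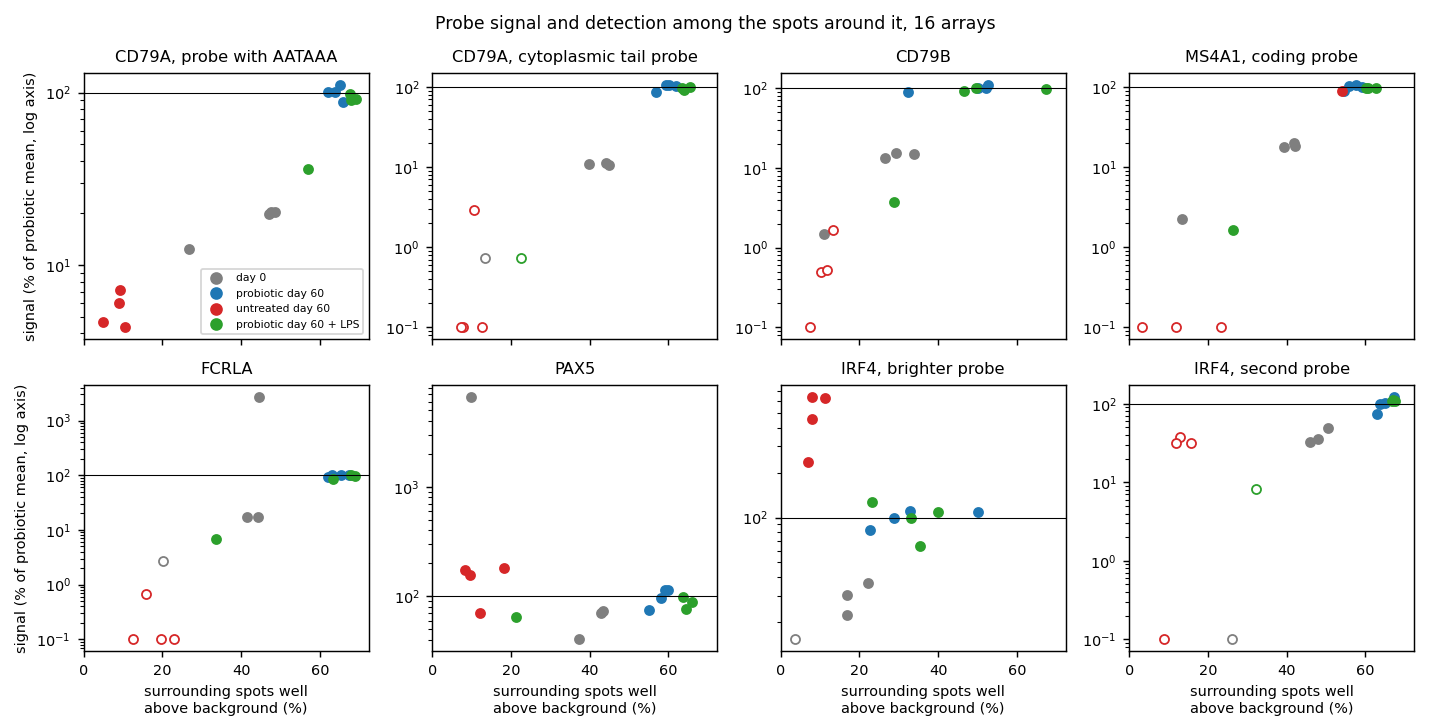
Signal of each kept probe as a percent of its mean on the probiotic arrays (log axis) against the percent of surrounding spots well above background on the same array, for 16 arrays; values under 0.1% are drawn at 0.1% and open points are undetected. The lowest CD79A, CD79B and MS4A1 signals lie at low percentages of detected surrounding spots, and the highest values of the brighter IRF4 probe at 6.89% to 11.1%. Some points depart from this, as CD79B on probiotic replicate 4 (90.2% of the mean) and day 0 replicate 1 (15.1%) lie at 32.4% and 33.8%.

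Probiotic against untreated blood at day 60 compares the supplement with water at the same time. After scaling, CD79B and the CD79A tail probe were at least 4.36-fold and at least 3.28-fold higher in the probiotic pool, bounds that set the untreated level at the lowest detected signal of each untreated array. The fitted log2 differences were 3.92 ± 0.55 (SE, limma adjusted p = 2.7e-05) and 3.63 ± 0.88 (adjusted p = 0.00243). The 3′-end probe of CD79A rose by 1.16 ± 0.37 on the log2 scale (adjusted p = 0.0141). IRF4 fell by 5.24 ± 0.63 (adjusted p = 7e-06) on its brighter probe and PAX5 fell by 3.5 ± 1.45 (adjusted p = 0.0478). A probe passed here at a Benjamini-Hochberg adjusted p under 0.05 over all 12233 kept probes and a difference of at least 2-fold.

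In this comparison 6 of the 8 kept B cell probes passed, 3 higher and 3 with a negative fitted difference, beside 59.0% of all kept probes (24.0% higher and 35.0% lower). The third negative one was the second IRF4 probe, at -1.2 ± 0.38 (adjusted p = 0.0131). It was detected on all probiotic arrays and on no untreated array, so its untreated level is only a bound and the data give it no direction. MS4A1 missed the threshold at 2.51 ± 1.28 (adjusted p = 0.103), and passed without untreated replicate 4 (adjusted p = 0.000156). The remaining untreated arrays did not detect it, and the probiotic pool was then at least 3.86-fold higher. FCRLA missed it at 2.61 ± 1.23 (adjusted p = 0.0798), and was at least 1.22-fold higher in the probiotic pool. The spots with an outlier flag, FCRLA on day 0 replicate 1 and PAX5 on day 0 replicate 4, widen the error of these genes in every comparison of the shared fit. With such spots left out, 7 of the 8 passed, beside 59.2% of kept probes: FCRLA also passed (2.61 ± 0.39, adjusted p = 6.16e-05), and PAX5 stood at -3.5 ± 0.50 (adjusted p = 4.65e-05). The median difference was 1.83 over the 8 probes and -0.28 over all kept probes. All 8 passed the filter through the probiotic arrays, and a share of calls near the background is no result about these genes. In 7 of the 8 probes the groups did not overlap, 4 with the probiotic arrays higher, beside 26.8% of kept probes that did not overlap with probiotic higher and 34.4% with probiotic lower.

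The direction rested on the scaling for some of these probes. Scaled on the 75th percentile of all probes, which moved the median of all kept probes to 1.57, 5 B cell probes were higher and 1 lower, PAX5 did not pass (-1.65), and the second IRF4 probe turned to 0.65. After local scaling, with an overall median of 0.23, 3 were higher and 2 lower, beside 57.1% of kept probes (31.9% higher and 25.2% lower): CD79B (3.39), the CD79A tail probe (2.43) and MS4A1 (2.18) were higher, and the brighter IRF4 probe (-4.02) was lower. The other negative call was the second IRF4 probe (-3.0), undetected on the untreated arrays. The 3′-end probe of CD79A turned to -0.86 under local scaling, and cyclic loess also turned it. PAX5 lost its call when any 1 of the 8 arrays was left out (limma adjusted p 0.05 to 0.0926), and under local scaling (-3.96, adjusted p = 0.0596). The second IRF4 probe lost its call without untreated replicate 1, at -0.99.

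Probiotic blood at day 60 against day 0 asks what differed after 60 days of supplement. No B cell probe passed in limma (0 of 8, beside 10.4% of all kept probes, 6.52% higher and 3.91% lower), and 2 of 8 had an unadjusted p under 0.05, CD79B (higher) and PAX5 (lower). The CD79A tail probe differed by 1.83 ± 0.88 (adjusted p = 0.198), CD79B by 1.28 ± 0.55 (adjusted p = 0.150) and MS4A1 by 0.83 ± 1.28 (adjusted p = 0.678). The 3′-end probe of CD79A differed by 0.16 ± 0.37, with overlapping groups. For 3 probes, the CD79A tail, CD79B and MS4A1, all 4 probiotic arrays lay above all 4 day 0 arrays after scaling, beside 33.5% of all kept probes. PAX5 lay below without overlap, as did 8.31% of kept probes. After local scaling 0 of the 8 passed, beside 10% of kept probes (6.03% higher and 4.00% lower). PAX5 differed by -3.29 ± 1.45 (adjusted p = 0.159), and by -1.13 ± 0.54 without day 0 replicate 4. FCRLA differed by -0.92 ± 1.23 with day 0 replicate 1 and by 0.94 ± 0.43 without it. With day 0 replicate 4 and LPS replicate 4 left out together, which was added after inspecting the arrays, the CD79A tail probe (1.33 ± 0.44, adjusted p = 0.0381) and PAX5 (-1.13 ± 0.35, adjusted p = 0.0299) passed. The median over the 8 probes was -0.08 and over all kept probes 0.60.

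Untreated blood at day 60 against day 0 compares blood after 60 days of water only with blood before any supplement. It shares its arrays with both comparisons above. Slide and scan day differed between these groups, and the cows did too if the day 0 pool held only the probiotic arm. A change over time cannot be told apart from these. CD79B fell by 2.64 ± 0.55 (adjusted p = 0.000823) and FCRLA fell by 3.52 ± 1.23 (adjusted p = 0.0234). Their untreated levels were not well above background, and for CD79B the day 0 arrays were at least 1.80-fold higher. For FCRLA the corresponding bound of 2.31-fold rested on the spot with an outlier flag on day 0 replicate 1, and without that array no bound above 1 could be given. IRF4 rose by 4.93 ± 0.63 (adjusted p = 1.24e-05) on its brighter probe. The 3′-end probe of CD79A fell by 1.0 ± 0.37 (adjusted p = 0.0315), at the 2-fold threshold. The 4 calls among 8 probes, 1 higher and 3 lower, stand beside 55.8% of all kept probes (39.5% higher and 16.3% lower). In 4 probes the groups did not overlap, 1 of them higher, beside 40.4% of kept probes higher and 13.9% lower without overlap. The medians were -1.34 over the 8 probes and 0.91 over all kept probes.

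The other probes in this comparison were the CD79A tail probe at -1.80 ± 0.88 (adjusted p = 0.0946), MS4A1 at -1.67 ± 1.28 (adjusted p = 0.276), PAX5 at 0.21 ± 1.45 (adjusted p = 0.910) and the second IRF4 probe at 0.85 ± 0.38 (adjusted p = 0.0689). Single arrays decided several of these calls. Without untreated replicate 4, MS4A1 and the CD79A tail probe passed, both undetected on the remaining untreated arrays. Day 0 was then at least 2.16-fold higher for MS4A1, and no bound above 1 could be given for the tail probe. Without day 0 replicate 4, PAX5 rose by 2.37 ± 0.54, the tail probe passed with day 0 at least 1.31-fold higher, and the 3′-end probe of CD79A (-0.71 ± 0.34) did not pass. With the outlier-flagged spots left out, 5 probes passed, 2 higher and 3 lower, beside 56.0% of kept probes, the added call being PAX5 (2.37 ± 0.54, adjusted p = 0.00197). The 3′-end probe of CD79A also failed without untreated replicate 1 (-0.96), 2 (-1.0) or 3 (-0.95). FCRLA failed without untreated replicate 2 (adjusted p = 0.0519) and moved to -1.67 ± 0.43 without day 0 replicate 1. The second IRF4 probe passed without untreated replicate 3, against untreated arrays that did not detect it. Scaled on all probes the split was 1 higher and 5 lower, with an overall median of -1.15. Under local scaling it was 2 higher and 4 lower, beside 51.8% of kept probes (25.9% higher and 25.9% lower). Of the 2 higher calls, 1 was the second IRF4 probe (2.20). It was undetected on the untreated arrays, so the data give it no direction. The 3′-end probe of CD79A turned to 0.64 under local scaling.

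LPS in probiotic blood served as a positive control, per the series' design text, and it is the comparison in which both groups shared a scan day. No B cell probe passed in limma (0 of 8, beside 1.86% of all kept probes, 1.73% higher and 0.123% lower) and 0 had an unadjusted p under 0.05. After local scaling 0 passed too, beside 1.54% (0.891% higher and 0.646% lower). The groups overlapped for all 8, whereas 4.07% of kept probes lay higher and 2.18% lower without overlap. The differences ran from -1.23 ± 0.88 for the CD79A tail probe to 0.54 ± 0.63 for the brighter IRF4 probe, and all adjusted p-values were 0.912 or above. LPS replicate 4 was the dimmest array of its group and its local detection share around the CD79A tail probe was 22.7%, against 63.4% to 65.5% on the other LPS arrays. Without it the 8 differences ran from -0.22 to 0.09. CD79A stood at -0.15 ± 0.31 on its 3′-end probe, CD79B at -0.09 ± 0.45 and the brighter IRF4 probe at -0.22 ± 0.42. MS4A1 stood at -0.08 ± 1.31, an interval wide enough to hold a change of more than 2-fold. On LPS replicates 1 to 3 the unscaled signal of CD79B was 92.3% to 102% of the probiotic mean, that of MS4A1 97.2% to 98.6% and that of FCRLA 85.2% to 103%.

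**Figure D4:**
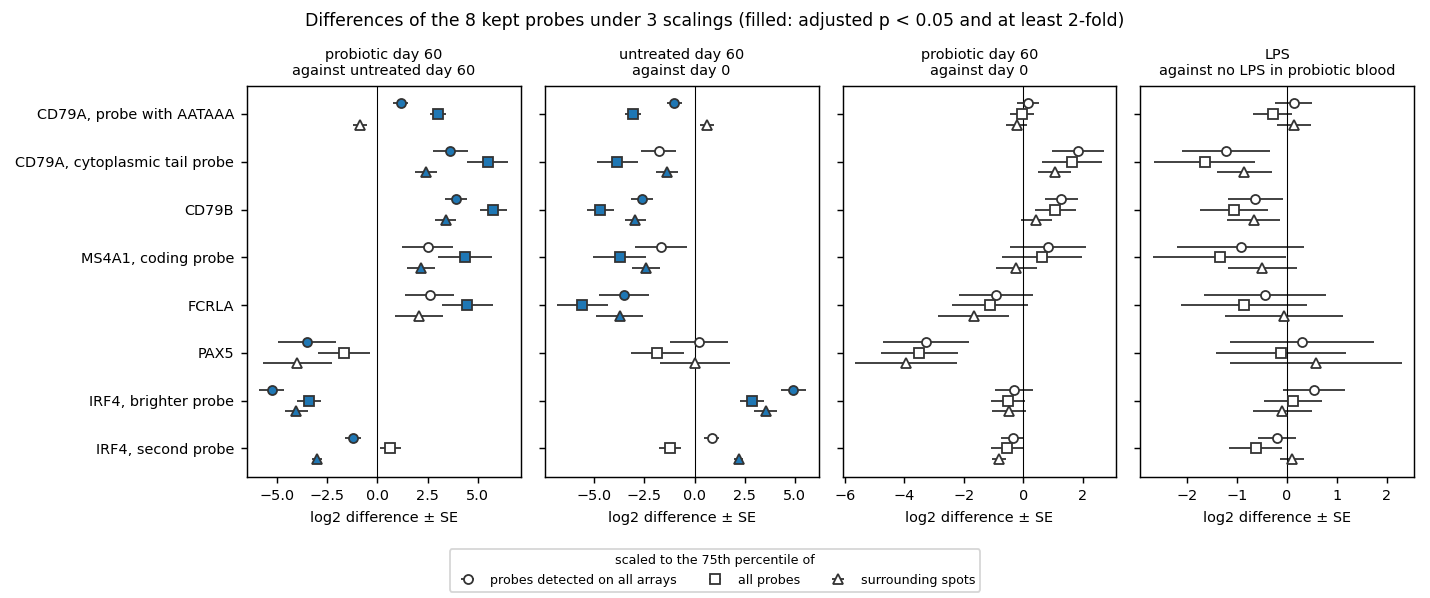
Log2 difference ± SE of the 8 kept B cell gene probes in 4 comparisons (panels), scaled on the 75th percentile of the probes detected on all arrays (circles), of all probes (squares) or of the surrounding spots (triangles); filled points passed an adjusted p of 0.05 and a 2-fold difference. CD79B and the brighter IRF4 probe keep their direction and their calls under the 3 scalings where untreated arrays are compared, the 3′-end probe of CD79A changes sign, and no point is filled in the LPS panel.

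Genes that act with the receptor were counted from lists. In B cell receptor signalling, 21 of 32 listed genes were kept. In probiotic against untreated blood 10 were higher, 3 lower and 8 did not pass. These counts are to be read beside the 59.0% of all kept probes that passed (24.0% higher and 35.0% lower). The median was 2.45, beside -0.28 over all kept probes. The filter could keep a gene through the groups where it is high, as for DAPP1, detected on 4 probiotic and 0 untreated arrays. This median is therefore no result about the list. LAT2, a membrane adaptor, rose by 3.85 ± 0.31 (adjusted p = 1.42e-07) and DAPP1, an adaptor downstream of PI3 kinase, was at least 3.67-fold higher. The kinase BTK rose by 2.59 ± 0.78 (adjusted p = 0.00992; 1.28 and not passing under local scaling), while LYN (2.66 ± 1.2, adjusted p = 0.0679) and SYK (2.45 ± 1.24, adjusted p = 0.101) did not pass. Under local scaling both passed, LYN at 2.64 (adjusted p = 0.0128) and SYK at 3.21 (adjusted p = 0.00532). The list then had 12 higher and 4 lower, beside 57.1% of kept probes (31.9% higher and 25.2% lower). The LYN values are of probe A_73_105751, at 95.7 to 7502 on untreated arrays. The kept SYK probe was detected on 1 untreated array, replicate 4, at 3955 (local share 56.5%). Another kept LYN probe, A_73_P072871, was detected on all 16 arrays. Its unscaled signal was 22002 to 46508 on probiotic and 139 to 1002 on untreated arrays, without overlap. Its scaled difference is not given here. A further LYN probe, A_73_P106866, was detected on 3 probiotic and 0 untreated arrays. The adaptor BLNK was not kept, and was detected on 6 of 16 arrays. Against day 0 the probiotic pool had 1 gene of this list higher and 1 lower of 21, beside 10.4% of all kept probes. With LPS 0 of the 21 passed, beside 1.86% of all kept probes. Untreated against day 0 gave 4 higher and 8 lower, beside 55.8% of all kept probes (39.5% higher and 16.3% lower).

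BANK1, a scaffold protein of B cells chosen here after its values were seen, was at least 2.74-fold higher in the probiotic than in the untreated pool (fitted difference 3.23 ± 1.05, limma adjusted p = 0.0153). It was detected on 4 probiotic, 3 LPS, 3 day 0 and 0 untreated arrays. It thus passed the filter only through the probiotic arrays, and its p-value lends no support to the difference. POU2AF1, a B cell transcriptional coactivator, was detected on 0 of 16 arrays. Of the 5 further B cell markers on the array, the probiotic arrays detected 1 each and the untreated arrays 1 to 3.

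Of the B cell transcription factors, 12 of 18 genes on the array were kept, and 5 had a positive and 4 a negative call in probiotic against untreated blood, a share to be read beside the 59.0% of all kept probes. Under local scaling the split was 5 and 1, beside 57.1% of kept probes. Of the 4 negative calls, POU2F1 (-3.96), BCL11A (-2.44) and ETS1 (-2.05) did not pass under local scaling (0.59, -0.15 and -0.13), BCL11A and ETS1 being undetected on the untreated arrays, and IRF8 passed there too (-4.65). Of the positive calls, TCF3 (1.94) did not pass under local scaling (0.14), where SPI1 did (3.78). SPIB, an ETS factor of B cells, was at least 2.01-fold higher, and IRF8, the relative of IRF4, fell by 3.78 ± 0.35 (adjusted p = 5.79e-07) as IRF4 did. Untreated against day 0 gave 3 higher and 3 lower, beside 55.8% of all kept probes. Under local scaling this was 2 and 6, beside 51.8%. With LPS 1 passed, beside 1.86% of all kept probes. This was BCL11A, at 2.29 ± 0.49 (adjusted p = 0.0191), and under local scaling it stood at 0.27. Among 21 B cell surface and maturation genes on the array 6 were kept. Of these, 2 were higher and 2 lower in probiotic than in untreated blood, again beside 59.0% of all kept probes. The tetraspanins CD37 and CD53 were at least 5.96-fold and at least 25.7-fold higher, and CD70, the ligand of CD27, fell by 4.43 ± 0.52 (adjusted p = 5.23e-06). Of 11 immunoglobulin and plasma cell genes 4 were kept. JCHAIN (IGJ on the array), which joins secreted immunoglobulin, was not well above background on the untreated arrays and at least 1.28-fold higher in the probiotic pool (fitted difference 2.59 ± 0.58, adjusted p = 0.00129), and the heavy chain gene IGHG1 fell by 5.37 ± 0.72 (adjusted p = 1.88e-05). IGLL1 rose by 3.5 ± 0.90, and MZB1 fell by 4.54 ± 0.65 but stood at 0.20 under local scaling. Against day 0 no immunoglobulin or plasma cell gene of the 4 passed in the probiotic pool, beside 10.4% of all kept probes.

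Over the 16 arrays, the probes whose scaled signal was most like that of CD79B belonged to MARVELD1, SRPR, ACOT7, CCNI and DCTN1, with Pearson r of 0.99 each, and none of these 5 lay within 15 rows and 8 columns of the CD79B probe. For MS4A1 they were ALDH16A1 (r = 1.00), NDUFA6, SLC15A4, MTERFD1 and DES (r = 0.99 each). ALDH16A1, SLC15A4, MTERFD1 and DES lie within 6 rows and 2 columns of the MS4A1 probe, in a window that holds 1.68% of kept probes. For the 3′-end probe of CD79A they were HIST2H2BE (r = 0.95), PUF60, TJP3, OS9 and RBM39 (r = 0.94 each). PUF60, OS9 and RBM39 lie in the same array column, within 10 rows, and the window around the CD79A probe holds 1.41% of kept probes. Among the members, CD79B and the brighter IRF4 probe had the strongest relation, with r of -0.92. The correlations describe 16 arrays of 4 pools and share slides, scans and places on the array.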

How the data were processed

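The scanner files hold intensity values per spot, extracted with Agilent Feature Extraction 10.10.1.1 per the submitters' processing notes. Per the file headers, background was subtracted, and the software multiplied the signal by a smooth factor (detrending) on 4 of 16 arrays. The authors also deposited a table of group averages on a log2 scale, whose normalization and centring are not given in the sources used here. It supplied the gene symbols and probe sequences. Member genes and all lists were chosen with earlier results of these data known.

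Signals before detrending, with values under the noise level of an array set to it, were taken as log2, minus the 75th percentile of each array over the 712 probes well above background on all 16 arrays. Control spots were left out, and so were spots with an outlier flag where a probe had another spot. The design was to leave out all flagged spots, but a probe whose only spot was flagged kept its value (361 values among kept probes, 2 of them of B cell genes), and an alternative without them was added after the data had been seen. Probes well above background on all 4 arrays of a group were kept (12233 of 43653). Differences were tested with limma 3.58.1 in R 4.3.3, two-sided, in a fit of 16 arrays, with Benjamini-Hochberg adjustment. The software's factor was not a column, so on the 4 detrended arrays the noise level was taken as the lowest signal well above background divided by 5. That rule gave 0.995 to 0.997 of the software's own level on the other 12 arrays. The fit was tested on simulated data. Alternatives changed the scaling, background correction (normexp on median signals), filter, model and arrays used, and the closing section gives their effect. Each gene in a list is represented by its kept probe with the highest mean. All 9 genes were to be named, with up to 4 others per list by smallest adjusted p among those that passed, and BTK, SYK, LYN, BLNK and POU2AF1. Some genes that this rule names are not reported here. BANK1 was chosen after its values were seen. The number of arrays limits the precision.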

Additional observations from a re-analysis of the deposited data

Results flagged for a closer look

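In 14 of 31 sets of 4 arrays (a probe in a group, with at least 1 detection), a single array stood apart by Dixon's criterion at 95% on the scaled log2 signal. Chance alone gives about 1 in 20 such sets. Of the 14, 13 were on replicate 4 of a group. LPS replicate 4 stood low for 5 probes and day 0 replicate 4 for 3. On LPS replicate 4 the signal was 20.0 for the CD79A tail probe (2503 to 2705 on the other LPS arrays), 135 for CD79B (3314 to 3647), 48.6 for MS4A1 (2905 to 2945), 69.7 for FCRLA (855 to 1030) and 9.16 for the second IRF4 probe (119 to 122). On day 0 replicate 4 it was 20.1 for the CD79A tail probe (289 to 306 on the other day 0 arrays), 52.5 for CD79B (480 to 547) and 67.6 for MS4A1 (543 to 610). Both arrays, like probiotic replicate 4, were the dimmest of their groups. The 3′-end probe of CD79A stood high after scaling on day 0 replicate 4 (2151, unscaled) and on probiotic replicate 4 (15344), as did CD79B on probiotic replicate 4 (3239), although the unscaled signals were the lowest of their groups.

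PAX5 on day 0 replicate 4 (29742, against 183 to 330 on the other day 0 arrays) and FCRLA on day 0 replicate 1 (26653, against 26.7 to 170) stood high, each beside a neighbouring spot that read 52135 and 65133 on that array. The scanning software marked both of these PAX5 and FCRLA spots as outliers. MS4A1 on untreated replicate 4 (2666, against -19.9 to -10.4) stood high where 54.0% of surrounding spots were detected, against 3.28% to 23.2% on the other untreated arrays.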

How the results depend on the processing

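Differences without replicate numbers as a block are the reported ones, and with the replicate block the counts of B cell probes that passed were 6 in probiotic against untreated, 0 in probiotic against day 0, 0 for LPS and 4 in untreated against day 0, as without it. The correlations of samples of the same number were -0.22 to 0.61 over 24 pairs (mean 0.04, against a mean of -0.004 for other pairs), so the criterion for pairing, every pair over 0.1, was not met. Leaving out each array in turn gave 4 to 6 probes in probiotic against untreated, 2 to 6 in untreated against day 0, and 0 in the others. In probiotic against untreated the count was 3 with the processed signal as deposited, 12 of 14 with no filter on dim probes, 2 of 2 with probes detected on all arrays only, and 2, without a test, in the authors' deposited averages. In probiotic against day 0 it was 3 with the processed signal, 3 with scaling on the median of all probes, 5 with no filter, 2 with the 2 groups alone, 2 with array weights, 2 with day 0 replicate 4 and LPS replicate 4 left out (chosen, like local scaling and the omission of outlier-flagged spots, after seeing the data), and 4 in the authors' deposited averages. For LPS it was 6 of 8, all lower, in the authors' deposited averages, where 67.4% of all kept probes moved 2-fold, and 0 in every other setting run. In untreated against day 0 it was 2 with cyclic loess, 8 with no filter and 1 of 2 with probes detected on all arrays only. With no filter the 14 probes include those of BLK and CR2, which no day 0, probiotic or untreated array detected. Any call of these probes between those groups compares undetected values and gives no direction. The 3′-end probe of CD79A reversed in untreated against day 0 with the processed signal (2.14), cyclic loess (2.95), local scaling (0.64) and the authors' deposited averages (3.37), and in probiotic against untreated with cyclic loess (-3.32) and local scaling (-0.86). In probiotic against untreated, PAX5 reversed with median scaling (0.25) and in the authors' averages (0.36), the CD79A tail probe in the authors' averages (-0.35), and the second IRF4 probe with scaling on the 75th percentile (0.65) or median (2.55) of all probes and with quantile normalization (0.90). The causes were not tested, apart from the filters, which change how many probes are tested. With outlier-flagged spots left out the counts were 7, 0, 0 and 5 in the order of the first sentence. Of the 488 values of single probes under settings other than leaving out 1 array, 388 were counted as unchanged. For tested values this means the same call, and it takes in 45 that changed sign without passing in either fit. For the authors' averages, which have no test, it means a value near the reported one, judged by its SE. Scan day as a random block was not run, because limma set its correlation to 0. The number of arrays and the low signal over background of day 0 and untreated arrays limit what could be detected.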
